A study of Mus musculus with 6 samples.

Results

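The RNA exosome is a large complex that degrades and trims RNA from its 3′ end. Its genes were described in M II oocytes of aged mice. The members were 10 genes taken by symbol from the 53465 genes of the count table. They comprised *C1d*, which encodes a nuclear cofactor, and 9 partner genes of the complex (*Mphosph6*, *Dis3*, *Exosc2*, *Exosc3*, *Exosc5*, *Exosc7*, *Exosc8*, *Exosc9* and *Exosc10*). *C1d* was chosen because its counts were higher in all quercetin pools, so its difference between the groups is given as a description with no test. The partners were listed for their place in the complex.

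The pools came from female Kunming (KM) mice, an outbred stock, aged 9 to 10 months. Oocytes were matured in vitro in M16 medium for 16 h with 10 μM quercetin, a plant flavonol dissolved in DMSO, or without quercetin. There were 3 pools per group, and each pool held 15 oocytes from 3 mice. Strain, sex, age and stage were shared by the groups. Whether the pools of a group came from separate mice or culture days is not given, so p-values measure the spread between these pools. In pooled oocytes, a lower value cannot tell fewer cells containing a transcript from less of it in each cell.

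The exosome is built as a ring of proteins related to the bacterial RNase PH, capped by RNA-binding proteins, with the nucleases DIS3 and EXOSC10 attached. In the nucleus, C1D binds EXOSC10 and MPHOSPH6 joins the complex with the helicase MTR4, and these cofactors serve in the 3′ processing of ribosomal RNA. Fully grown oocytes are transcriptionally silent and live on stored maternal mRNA, which is cleared in steps during maturation. Loss of EXOSC10 from growing mouse oocytes is known to impair maturation.

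The promoter windows of *C1d*, which differed between the groups, and of *Mphosph6*, the most abundant member, are shown to give the sequence around their start sites. Each holds the 250 bases before and the 50 bases after the RefSeq start site, on build GRCm38.p6, printed 5′ to 3′ on the gene's strand. Capitals mark the core of the xenobiotic response element (GCGTG, or CACGC on the other strand) and that of the antioxidant response element (TGACNNNGC, or GCNNNGTCA on the other strand). These are the elements of AHR and NRF2, factors on which flavonoids are known to act. The *C1d* window is chr11:17257438-17257737 on the plus strand and the *Mphosph6* window is chr8:117801925-117802224 on the minus strand.
C1d: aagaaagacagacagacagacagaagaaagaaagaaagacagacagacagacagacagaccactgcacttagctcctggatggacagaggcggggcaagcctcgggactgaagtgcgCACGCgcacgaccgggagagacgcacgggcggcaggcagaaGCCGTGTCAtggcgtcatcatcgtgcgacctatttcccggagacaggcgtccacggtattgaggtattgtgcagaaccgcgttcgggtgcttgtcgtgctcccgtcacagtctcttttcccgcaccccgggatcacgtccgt
Mphosph6: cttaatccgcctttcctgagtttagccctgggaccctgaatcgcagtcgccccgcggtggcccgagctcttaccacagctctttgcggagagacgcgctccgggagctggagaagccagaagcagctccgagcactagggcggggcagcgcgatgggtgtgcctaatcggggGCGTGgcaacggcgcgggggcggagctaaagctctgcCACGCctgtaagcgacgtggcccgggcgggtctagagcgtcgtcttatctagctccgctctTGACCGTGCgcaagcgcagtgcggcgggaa

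The *C1d* window held 1 xenobiotic core and 1 antioxidant core, and the *Mphosph6* window held 2 and 1. The marked stretches do not overlap each other. Of all 32841 RefSeq windows of this length, 32.4% held the xenobiotic core and 12.4% the antioxidant core. Among 9 members with a window, 6 held the xenobiotic core and 3 the antioxidant core, which besides these was found for *Exosc10*. These members had 10 windows, as *Exosc10* had more than 1, whereas the shares count single windows. GC content of the members' windows ran from 48% (*Exosc2*) to 75.7% (*Exosc8*). The shares were not matched for it, so no enrichment is read from these counts. The GC box (GGGCGG or CCGCCC, in 35.7% of all windows) was found for 8 members, the CCAAT box (CCAAT or ATTGG, 37.4%) for 3 and the TATA box (TATAAA or TTTATA, 13.6%) for 0. *C1d* had 1 GC box and *Mphosph6* had 3, which are not marked. A match only describes the letters and was not tested for binding.

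The 6 pools held 7880467 to 9938743 counts, and a gene at 3 counts had 0.328 to 0.375 CPM. CPM are counts divided by the library size in megareads, after TMM scaling, which corrects library sizes for differences in composition. This floor covers counting error only. The first principal component placed quercetin replicates 1 and 2 at -37.9 and -30.9, apart from quercetin replicate 3 at 30.9, with the control pools from -3.34 to 31.3. All 8 oocyte markers had counts, and their summed level was 15580 to 18730 CPM in the controls and 17380 to 18810 CPM with quercetin. Of 10 markers of cumulus and granulosa cells, 7 had counts, and *Ptx3*, *Amh* and *Foxl2* were at 0 in every pool.

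*C1d*, chosen for being higher in every quercetin pool, was so by several-fold, and no partner gene passed the test. Of the 10 members, 9 passed the filter on low counts, which asks for about 10 counts in at least 3 pools, and *Exosc5* did not. A gene was called when its fold change exceeded 2 and its adjusted p in edgeR's quasi-likelihood test was below 0.05. By this rule 0 of the 9 members and 0 of 11842 tested genes (0%) were called, whereas DESeq2 called 12 genes and edgeR's likelihood ratio test 16, none of them a partner. At an unadjusted p under 0.05, 477 genes (4.03%) passed, 2.14% higher and 1.89% lower, and none of the 8 tested partners did. With a fold change over 2 as well, 0.262% of genes were higher and 0.608% lower. By fold change alone 0.507% were more than 2-fold higher and 1.06% more than 2-fold lower, and again no partner was among them.

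*C1d* (ENSMUSG00000000581, chromosome 11 from 17257579 to 17269176, GRCm38) gave 18, 23 and 20 reads in the controls and 78, 150 and 132 with quercetin. These were 2.01, 2.76 and 2.24 CPM against 9.74, 16.4 and 15.5 CPM. The groups did not overlap, the control pools lay close together, and quercetin replicate 1 was the lowest of its group. The lowest quercetin pool was 3.53 times the highest control pool, and no partner reached 1 on this measure, with *Mphosph6* nearest at 0.961. Across all tested genes, 5.42% had every quercetin pool above every control pool, and nothing is read from this share because *C1d* was chosen by it.

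Mean *C1d* was 2.34 ± 0.380 CPM for the controls and 13.9 ± 3.61 CPM for the quercetin group (SD, n = 3). The fitted log2 fold change was 2.57, with a standard error of 0.31, or 5.92-fold, the third highest of 11842 genes. With any 1 pool left out, this value stayed between 2.43 and 2.77. Because *C1d* was chosen on these pools, its rank and this range are a description only. The spread of *C1d* within groups was 0.32 on the log2 scale, against a median of 0.37 for the 200 genes nearest in abundance.

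Summed cumulus markers were 74.1 to 92.6 CPM in the controls and 94.7 to 96.4 CPM in quercetin pools, most of it *Cyp19a1*. Like *C1d*, the sum was higher in every quercetin pool. In *Cyp19a1* the difference was 64.1 ± 5.31 against 74.4 ± 1.42 CPM (SD, n = 3). Of the other markers with counts, *Ptgs2* and *Fshr* had lower means with quercetin, and *Has2*, *Nr5a2* and *Inha* had higher means, all with overlapping groups. *Tnfaip6* had 0 reads in every control pool and 2, 8 and 4 with quercetin, so its groups did not overlap. These counts are very low, and *Tnfaip6* did not pass the filter on low counts. The part of the cumulus markers in the *C1d* difference was not tested. Of the *C1d* sequence, 0.752% of 31-base words also occur in another gene, the pseudogene *Gm19571*, and no exon overlaps another gene.

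**Figure D1:**
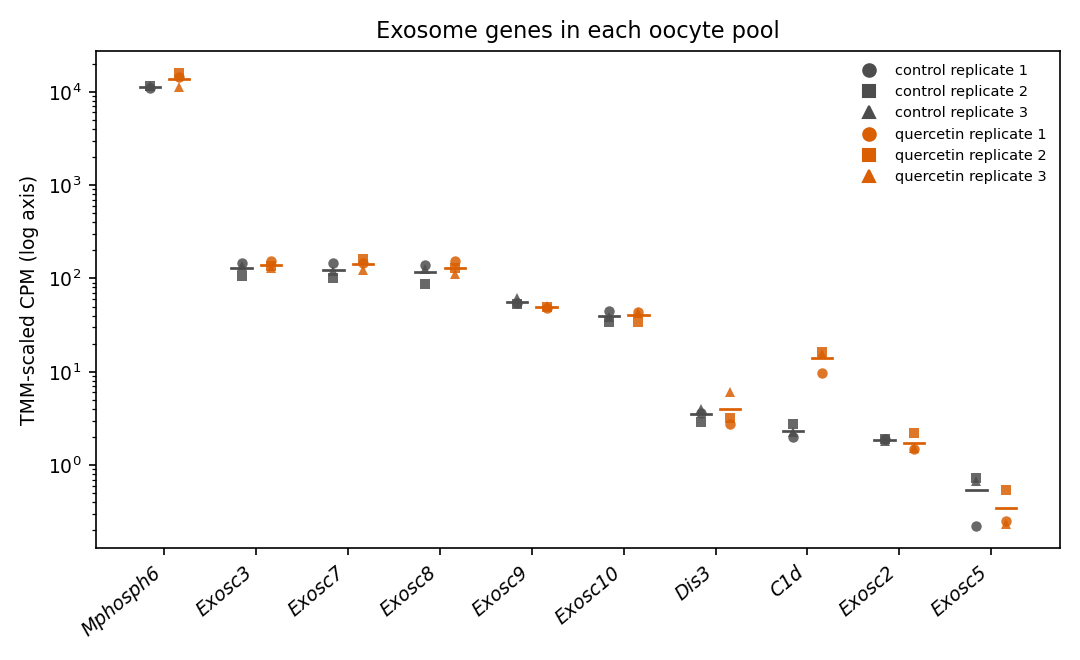
TMM-scaled CPM (log axis) of the 10 members in the 3 control pools (grey) and the 3 quercetin pools (orange), with a marker shape per replicate number and a short line at each group's mean. *C1d* lies at 2.01 to 2.76 CPM in the controls and 9.74 to 16.4 CPM in quercetin pools, while only *Exosc9* otherwise has no overlap between groups.

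*Mphosph6* (ENSMUSG00000031843, chromosome 8 from 117791645 to 117801943), the other nuclear cofactor, was among the most abundant transcripts of these oocytes. It took 1.12% to 1.45% of all counts and ranked between 1 and 3 of all genes in every pool. It had 10903, 11509 and 11629 CPM in the controls and 14369.9, 15743.5 and 11171 CPM with quercetin. Quercetin replicates 1 and 2 lay above the controls and quercetin replicate 3 among them, so the groups overlapped. The log2 fold change was 0.28 (95% interval -0.09 to 0.65, adjusted p = 0.988 in edgeR's quasi-likelihood test). It made up 95.3% to 96.7% of the summed CPM of the 10 members. A processed pseudogene, *Gm11448*, shares 7.81% of its sequence and had 1071 to 2740 counts per pool.

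The nuclease genes stood far apart in level. *Exosc10* (ENSMUSG00000017264, chromosome 4 from 148558429 to 148582401), the nuclear nuclease that C1D binds, had 45.2, 34.5 and 38.2 CPM in the controls and 43.6, 34.4 and 42.7 CPM with quercetin. These values overlapped throughout, with a log2 fold change of 0.03 (95% interval -0.40 to 0.47). *Dis3* (ENSMUSG00000033166, chromosome 14 from 99075206 to 99099770), the main processive nuclease, was scarce, at 32, 24 and 36 reads in the controls and 22, 29 and 52 with quercetin. Its difference rested on quercetin replicate 3, the highest pool. The log2 fold change of *Dis3* was 0.19 (95% interval -0.65 to 1.03) and fell to -0.24 without that pool. Of the exon length of *Dis3*, 4.19% overlaps *Pibf1* on the other strand, which had 829 to 1318 counts per pool, so their reads may be split.

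Among the cap genes, *Exosc3* (ENSMUSG00000028322, chromosome 4 from 45316613 to 45342732) had 146, 106 and 136 CPM in the controls and 153, 137 and 130 CPM with quercetin. *Exosc2* (ENSMUSG00000039356, chromosome 2 from 31670715 to 31681349) was scarce, with 17, 16 and 16 reads in the controls against 12, 20 and 13. Both genes overlapped between the groups, with log2 fold changes of 0.11 (95% interval -0.26 to 0.49) for *Exosc3* and -0.10 (95% interval -0.91 to 0.71) for *Exosc2*.

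Of the ring genes, *Exosc7* (ENSMUSG00000025785, chromosome 9 from 123113215 to 123136129) had 146, 100.2 and 120.4 CPM in the controls and 148, 160.4 and 124 CPM with quercetin. *Exosc8* (ENSMUSG00000027752, chromosome 3 from 54728678 to 54735393) had 141, 88.1 and 127 CPM in the controls and 152, 128 and 111 CPM with quercetin. Control replicate 2 was the lowest pool for *Exosc3*, *Exosc7* and *Exosc8* alike. Their groups overlapped, with log2 fold changes of 0.24 (95% interval -0.17 to 0.64) for *Exosc7* and 0.14 (95% interval -0.32 to 0.60) for *Exosc8*.

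*Exosc9* (ENSMUSG00000027714, chromosome 3 from 36552606 to 36565727), also of the ring, was the partner whose pools parted. It had 54.3, 53.3 and 62.0 CPM in the controls and 48.6, 49.6 and 50.1 CPM with quercetin. Every quercetin pool was below every control pool, as in 5.17% of all tested genes, and a count of 1 in 8 partners is not read as a result about the partners. The log2 fold change was -0.19 (95% interval -0.55 to 0.16, adjusted p = 0.988 in edgeR's quasi-likelihood test). A two-sided exact permutation test gave p = 0.1, the smallest p that 3 pools against 3 allow. Any gene whose groups do not overlap gets this p, so it adds nothing to the separation. Of its exon length, 10.8% overlaps *Ccna2* on the other strand, which had 1862 to 2871 counts per pool, so their reads may be split.

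*Exosc5* (ENSMUSG00000061286, chromosome 7 from 25659164 to 25671368), another ring gene, had 2, 6 and 6 reads in the controls and 2, 5 and 2 with quercetin. It was near the floor in both groups and no difference was detectable at this depth. The 6 core genes of ring and cap summed to 488, 350.1 and 447 CPM in the controls and 503, 478 and 416 CPM with quercetin, which overlap, with control replicate 2 the lowest.

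Of the 8 tested partners, 6 had fitted values above 0 and 2 below, where 46.4% of all tested genes were above 0. The values ran from -0.19 to 0.28 on the log2 scale. Their median was 0.13, against -0.026 over all tested genes. All 8 intervals included 0, adjusted p-values were 0.988 to 0.998 in edgeR's quasi-likelihood test, and 7 intervals lay within a fold change of 2 in either direction, the exception being *Dis3* at its upper bound.

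**Figure D2:**
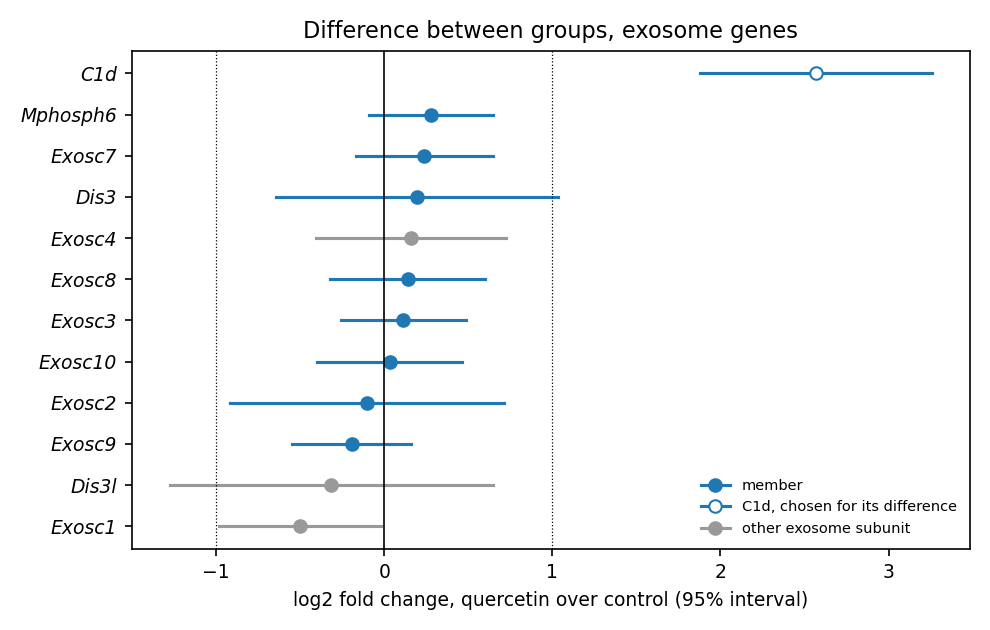
log2 fold change of quercetin over control for the 9 tested members (blue, *C1d* as an open circle) and 3 other exosome subunits (grey), with 95% intervals from the quasi-likelihood fit and dotted lines at a fold change of 2. The 8 partner members lie between -0.19 and 0.28 and *C1d* at 2.57.

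Counts of *C1d* were also set against partner counts in the same pool, a ratio that no scaling of the libraries can move. Per 100 reads of *Exosc10*, its binding partner, there were 4.46, 7.99 and 5.87 reads of *C1d* in control pools and 22.35, 47.6 and 36.3 with quercetin. Per 100 reads of *Mphosph6* there were 0.0185, 0.0239 and 0.0193 against 0.0678, 0.104 and 0.139. Against *Exosc9* they were 3.71, 5.17 and 3.62 in the controls and 20.1, 33.04 and 30.9 with quercetin. The groups stayed apart whichever of the 8 tested partners was the divisor. The lowest quercetin ratio was 2.05 times the highest control ratio for *Exosc8*, where the gap was narrowest, and 4.52 times for *Exosc2*. All ratios share the counts of *C1d*, which was chosen for its difference. Their separation largely follows from that choice, so the 8 divisors are not separate evidence and the ratios are given as a description.

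**Figure D3:**
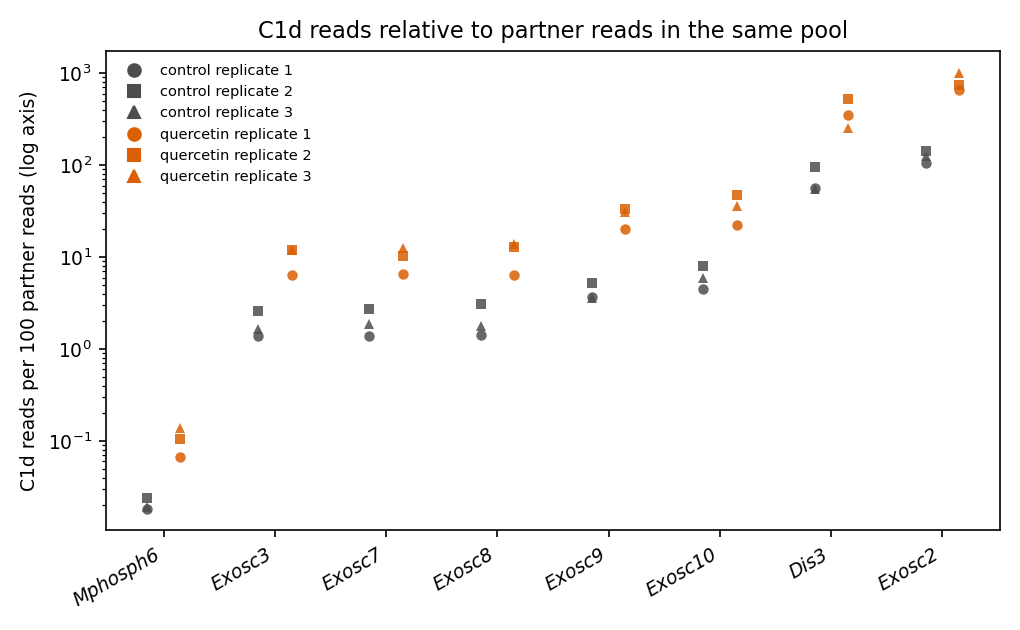
Reads of *C1d* per 100 reads of each tested partner in the same pool (log axis), for the 3 control pools (grey) and the 3 quercetin pools (orange). Every orange point lies above every grey point, with the narrowest gap for *Exosc8*, at 3.13 in control replicate 2 and 6.41 in quercetin replicate 1.

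Levels were compared between genes as CPM per kilobase of annotated exon, averaged over the 6 pools. *Mphosph6* was highest at 5070.4, and its lowest pool was far above the highest pool of any other member. It was followed by *Exosc3* at 102, *Exosc8* at 28.7, *Exosc7* at 22.1, *Exosc9* at 11.3 and *Exosc10* at 11.1. *Exosc8* and *Exosc7* did not differ beyond their range over pools, and neither did *Exosc9* and *Exosc10*. *C1d* came next at 2.03, then *Exosc2* at 0.625, *Dis3* at 0.484 and *Exosc5* at 0.0704. The ranges of *C1d* (0.504 to 4.11) and *Exosc2* (0.519 to 0.757) overlapped, as did those of *Exosc2* and *Dis3* (0.354 to 0.787), so these ranks are not resolved over the 6 pools.

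The place of *C1d* in this order differed between the groups, which follows from the difference it was chosen for. It was at 0.585 ± 0.0952 CPM per kilobase in control pools, beside *Exosc2* at 0.648 ± 0.0232 and *Dis3* at 0.451 ± 0.0754. In quercetin pools it was at 3.47 ± 0.904, between *Exosc2* at 0.601 ± 0.135 and *Exosc9* at 10.5 ± 0.166 (SD, n = 3). Genes for parts of 1 complex spanned levels from 0.0704 to 5070.4, and even without *Mphosph6* the ring genes *Exosc5* and *Exosc8* lay far apart. Exon length is that of all annotated transcripts together, so a gene with long unused exons reads too low.

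**Figure D4:**
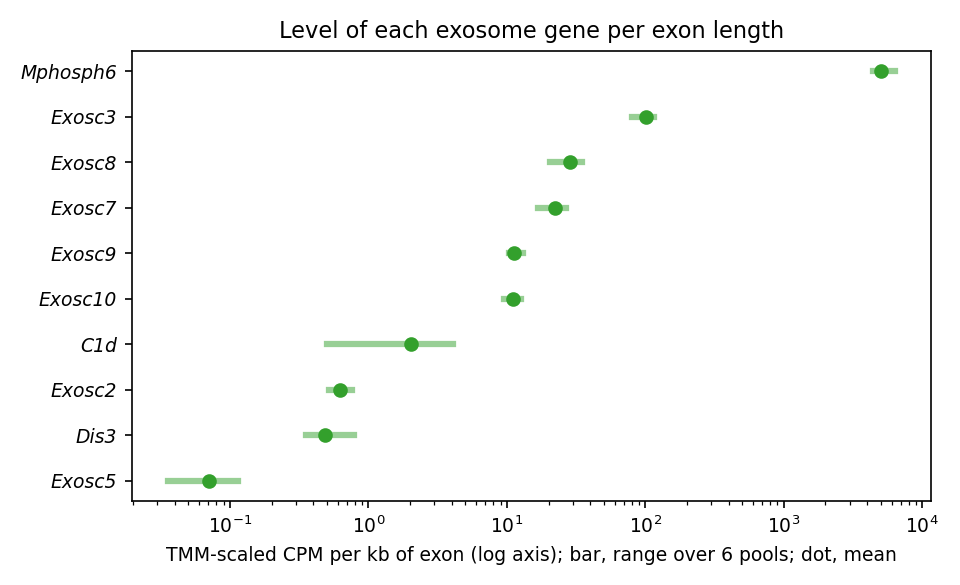
Level of each member as TMM-scaled CPM per kilobase of exon (log axis), with the mean over the 6 pools as a dot and the range over the pools as a bar. *Mphosph6* stands at 5070.4 and *Exosc5* at 0.0704, and the bar of *C1d* is the widest, from 0.504 to 4.11.

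By the spread between pools of a group, *Exosc9* was among the lowest for its abundance in these pools. Each spread rests on 3 pools per group, and *Exosc9* had the smallest of the 9 tested members. It is therefore not read as a property of the transcript. The standard deviation of *Exosc9* was 0.086 on the log2 scale, and only 2.5% of the 200 genes nearest in abundance had a smaller one. That of *Exosc2* was 0.20, where the median of like genes was 0.50. The other partners ranged from 0.18 to 0.44.

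The genes whose levels followed *C1d* most closely were ranked by Pearson's r of log2 CPM over the 6 pools among 7919 genes at 5 CPM or more. They were *Tarsl2* (r = 0.993), *Gm38706* (r = 0.984), *Gm11916* (r = 0.979), *Fbxw15* (r = 0.969) and *Zfp677* (r = 0.968). With 6 pools of which *C1d* separates the groups, these values describe shared pools only, and 19 genes reached at least 0.95. Among the tested partners the highest was *Mphosph6* at 0.63 and the lowest *Exosc9* at -0.78. The same limit holds for them, as r with *C1d* largely follows each gene's own difference between the groups.

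The remaining exosome subunit genes gave a mixed picture. *Exosc1*, a cap gene, had 280, 251 and 268 reads in the controls and 140, 185 and 230 with quercetin. It was lower in every quercetin pool, as 5.17% of all tested genes were, with replicate 3 nearest to the controls. Its log2 fold change was -0.50 (standard error 0.21, unadjusted p = 0.0439, adjusted p = 0.988 in edgeR's quasi-likelihood test), so it was not called. *Exosc4*, of the ring, had a log2 fold change of 0.16 (standard error 0.25), and 19.8% of its exon length overlaps *Oplah*, which had at most 4 counts. *Dis3l*, the cytoplasmic relative of *Dis3*, had 140, 127 and 137 reads in the controls and 62, 62 and 193 with quercetin, so only quercetin replicate 3 was above them. *Exosc6* had 0 to 4 counts and was not tested, and all of its exon length lies within exons of *Aars*.

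Adaptor genes that feed RNA to the exosome were taken from a list made by function. Of 14 nuclear adaptors, such as the helicase gene *Mtrex* and the poly(A) polymerase genes *Tent4a* and *Tent4b*, 12 were tested. By fitted value 1 was higher and 11 were lower, where 46.4% of all tested genes were above 0. Their median log2 fold change was -0.16, none was called and none had an unadjusted p under 0.05. *Rbm7*, an RNA-binding subunit of the nuclear exosome targeting complex, was named after its values were seen. It was below every control in each quercetin pool, at 51.4 ± 1.22 CPM against 63.4 ± 5.01 CPM in the controls (SD, n = 3). In edgeR's quasi-likelihood test its unadjusted p was 0.0816 and its adjusted p 0.988. Of the 32 tested related genes, 2 were lower in this way, as were 5.17% of all tested genes, so nothing is read from it. The 4 adaptors of the cytoplasmic Ski complex had a median of 0.065, and the 5 other RNA exonucleases, which include *Xrn1* and *Xrn2*, one of -0.0011. The 8 partners and relatives of C1D outside the exosome, which include *Tsnax* and *Prkdc*, had a median of -0.087. Across these 35 related genes, 32 were tested, 10 were higher and 22 lower, and only *Exosc1* had an unadjusted p under 0.05, against 4.03% of all tested genes.

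**Figure D5:**
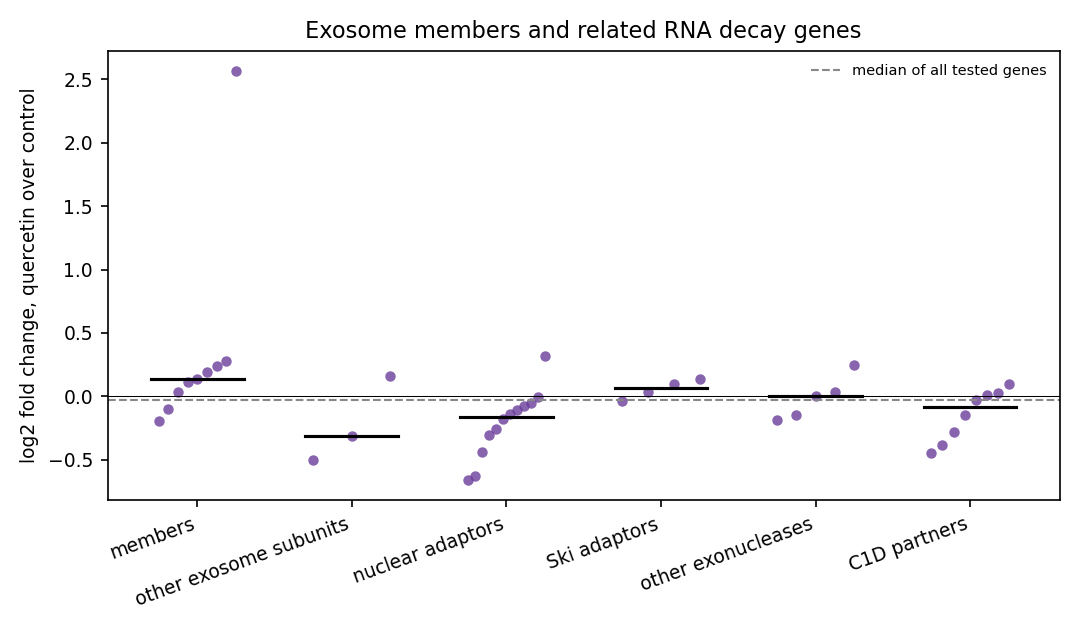
log2 fold change of quercetin over control for each tested gene of the members and of 5 related lists, with the list median as a black line and the median of all tested genes (-0.026) as a dashed line. *C1d* at 2.57 is the only point above 0.5, and the nuclear adaptors lie mostly below 0.

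Several of these related genes separated the quercetin pools from each other. In 12 of the 32, quercetin replicates 1 and 2 were below every control pool and quercetin replicate 3 was not, a pattern noticed after the values were seen. *Ncbp2*, of the cap-binding complex, was 1 of them, with 1194, 1116 and 1093 reads in the controls and 351, 402 and 1358 with quercetin. No minimum margin was set, and in *Ncor1* quercetin replicate 1 was at 64.19 CPM against 64.26 CPM in the lowest control pool. The pattern was present in 12.3% of all tested genes and in 0 of the 8 tested partners. *C1d* could not show it, since it was chosen as higher in every quercetin pool.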

How the data were processed

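RNA was measured in 6 pools of mouse M II oocytes. Library construction used a Smart-seq HT kit, which primes from poly(A) tails, so a transcript's measured level can follow its tail as well as its amount. The authors deposited raw counts of reads per Ensembl gene, with no normalization and no pooling of replicates. The paper names Hisat2 and GRCm38.91 for alignment, whereas the submitters' processing notes list CASAVA 1.8 and TopHat2 2.0.6. The counting program, its use of strand and its handling of reads that match several genes are not given in the sources used here.

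Symbols matched 53274 of the 53465 identifiers. Genes passing filterByExpr (minimum count 10) were scaled by TMM. The test was edgeR's quasi-likelihood test (version 4.0.16 under R 4.3.3) on group alone, and p-values of the 11842 genes were adjusted by Benjamini-Hochberg. Library sizes were the totals over all genes. Standard errors are the fold change divided by the square root of F, and 95% intervals use the moderated degrees of freedom. Correlations used log2 CPM with a prior count of 2. Coordinates, exon lengths and 31-base words came from GENCODE M21 on GRCm38, and promoter windows from RefSeq on GRCm38.p6. Depth was 7880467 to 9938743 counts.

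The members and lists were chosen with earlier results of these data known. The genes named are all members, related genes with an unadjusted p under 0.05 (at most 5), *Exosc1*, *Exosc4* and *Exosc6*, and the 5 genes most correlated with *C1d*; other names were chosen after their values were seen or give examples of a list. Other settings tried were limma-voom (limma 3.58.1), DESeq2 1.42.0, a likelihood ratio test in edgeR, further scalings and filters, each pool left out, and the replicate number as a block. Plots were drawn with matplotlib 3.10.9.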

Additional observations from a re-analysis of the deposited data

How the results depend on the processing

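*C1d* was higher with quercetin under every alternative run, and because it was chosen on these pools its calls are no independent evidence. It was called with no filter on low counts (log2 fold change 2.575), by DESeq2 (2.59) and by edgeR's likelihood ratio test (2.57), and leaving out each pool moved the value from 2.43 to 2.77, with a call only without quercetin replicate 1. In these 3 settings, and at an unadjusted p, 1 member was called, and leaving out a pool gave 0 to 1. Over all genes, 3 were called with no filter, 12 by DESeq2, 16 by the likelihood ratio test and 103 at an unadjusted p (31 higher, 72 lower), and 0 to 7 with a pool left out. The adjusted calls were 0 with other scalings, with a filter of 10 counts in every pool and by limma-voom.

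No partner was called under any alternative. *Exosc10* turned to -0.045 when scaled by library size only, a scaling that moved the median of all genes to -0.11. With a pool left out, *Exosc10* ran from -0.050 to 0.15, *Exosc3* from -0.0084 to 0.21 and *Exosc8* from -0.033 to 0.28, each lowest without control replicate 2. *Exosc10* was also below 0 without quercetin replicate 1 or 3. The cause of these changes was not tested. *Dis3* ran from -0.24, without quercetin replicate 3, to 0.40. *Exosc2* ran from -0.30, without quercetin replicate 2, to -0.0073, without quercetin replicate 1, *Exosc7* from 0.12, without control replicate 2, to 0.39, without control replicate 1, and *Exosc9* from -0.23 to -0.11, without control replicate 3. *Mphosph6* ran from 0.17, without quercetin replicate 2, to 0.41, without quercetin replicate 3, where edgeR's quasi-likelihood test gave an unadjusted p of 0.00595 and an adjusted p of 0.239. The 2 members whose pools do not overlap, *C1d* and *Exosc9*, were the same with each scaling.

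Whether same-numbered pools share mice or a culture day is not given. Their deviations from the group means correlated by 0.296, 0.101 and -0.030 (mean 0.122, against -0.061 for other numbers), so pairing was neither established nor dismissed. With the replicate number as a block, *C1d* had a log2 fold change of 2.54 and 0 genes were called. Low counts limit the precision for *Exosc5*, *Exosc2*, *Dis3* and the control pools of *C1d*.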
